A study of Mus musculus with 2 samples.

Results

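The core transcription factors of the pluripotent state were examined as a group of 7 genes, Pou5f1, Sox2, Nanog, Utf1, Zfp42, Zscan10 and Zfp296, among the 11484 genes that a microarray measured. They were chosen by name with earlier results of these data known, as were the lists of genes and markers below. All 7 were on the array, and each was read by 1 probe. The small-molecule-generated stem cells, at passage 5 and grown in medium for embryonic stem (ES) cells, were set against the parental cells, at passage 1 and grown in medium with FBS. Both were mouse cells of the embryo stage and of the strain C57/ICR, and total RNA was labelled with Cy5 for both. Passage, medium and treatment differed together between the samples and cannot be told apart. No source used here gives the small molecule, its dose or the cell type of the parental culture. The series speaks of 3 replicates for each sample, but with a single column of values for each, no difference could be tested and every value describes these 2 samples alone. It is not known if a column is one array or an average of arrays.

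OCT4, the product of Pou5f1, and SOX2 bind DNA side by side in ES cells, and with NANOG they switch on their own genes and many others of the pluripotent state. UTF1 is a chromatin-associated protein of ES cells. REX1, the product of Zfp42, ZSCAN10 and ZFP296 are zinc finger proteins found in ES cells. These genes are silent or nearly so in most differentiated cells, although Sox2 is also used by neural progenitors, and their reactivation is a common sign of reprogramming.

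Values are the deposited probe intensities on a linear scale. The columns were alike in their distribution, with medians of 305 in the stem cells and 304 in the parental cells. The 25th percentile of each column, 93.4 in the stem cells and 93.8 in the parental cells, served as a floor. For a gene below it in 1 sample only the least possible fold is given, from the measured value in one sample and the floor in the other, and the 1701 genes below it in both have no fold. Over the 9783 genes that reached the floor in one sample or both, 20.4% were 2-fold or more higher and 20.8% were 2-fold or more lower in the stem cells. A probe's brightness depends on its sequence, so the values of different genes are not ordered against each other.

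In the stem cells 6 of the 7 core factors were higher by 2-fold or more and none was lower, against the background of 20.4%. The same 6 were 4-fold or more higher, where 6.31% of all genes were and 9.14% were lower by that much. The exception was Nanog. The median log2 difference, with values below the floor raised to it, was 4.02 over the 7 genes and 0.10 over all 9783, whose 99th percentile was 3.99. All 7 were at or above the floor in the stem cells. In the parental cells Pou5f1, Nanog and Zfp42 were under it, and the other 4 were above.

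**Figure D1:**
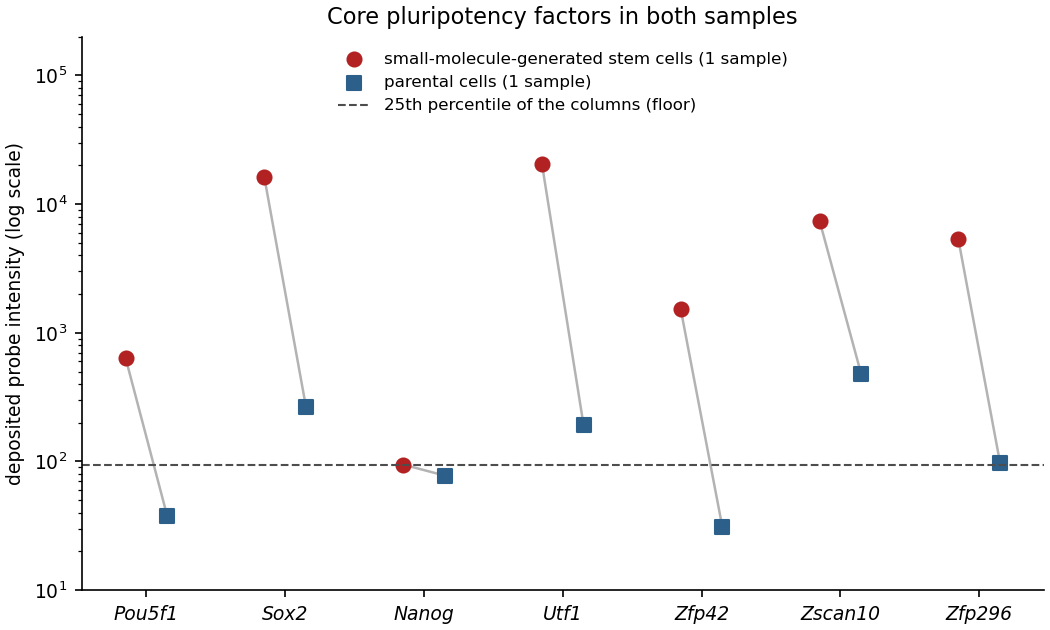
Deposited probe intensity (log axis) of the 7 core factors in the small-molecule-generated stem cells (circles) and the parental cells (squares), 1 sample each, with grey lines joining the values of a gene and a dashed line at the 25th percentile of the stem cell column (93.4). The stem cell value is far above the parental one for 6 genes, and Nanog, at 94.7 in the stem cells and 77.7 in the parental cells, lies close to the line in both.

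Pou5f1, the POU domain factor OCT4, was at 639 in the stem cells and at 37.8 in the parental cells. The parental value was under the floor, so the gene was at least 6.82-fold higher in the stem cells. Its value there lay at percentile 62.9 of the column, and its parental value at percentile 4.63. Taken as measured, the ratio of the values was 16.9.

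Sox2, the HMG box partner of OCT4, was at 16129 in the stem cells and at 265 in the parental cells. Both values were above the floor, and the gene was 60.8-fold higher in the stem cells. The parental value was 2.83 times the floor and lay at percentile 47.5 of its column, so that the probe was not dim in the parental sample. Sox2 lies within the long noncoding gene Sox2ot in the RefSeq annotation.

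Nanog, a homeodomain factor, was at 94.7 in the stem cells and at 77.7 in the parental cells. The parental value was under the floor and the stem cell value was 1.01 times the floor, which left a lower bound of 1.01-fold. Taken as measured, the ratio of the values was 1.22. A probe that responds weakly and a gene with little RNA cannot be told apart from 1 probe, so the values put no upper limit on the difference in Nanog RNA.

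Utf1 was at 20475 in the stem cells and at 191 in the parental cells. It was 107-fold higher in the stem cells. Its parental value was 2.04 times the floor.

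The 3 zinc finger genes were all higher in the stem cells. Zfp42, which encodes REX1, was at 1519.7 in the stem cells and at 30.8 in the parental cells, at least 16.2-fold higher. Zscan10, also known as Zfp206, was at 7427 in the stem cells and at 477 in the parental cells, 15.6-fold higher. Its parental value was 5.09 times the floor, so that its probe was not dim in the parental sample. Zfp296 was at 5316 in the stem cells and at 98.0 in the parental cells, 54.2-fold higher. The parental value of Zfp296 was just above the floor, at 1.05 times it, so this fold rests on a dim value.

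**Figure D2:**
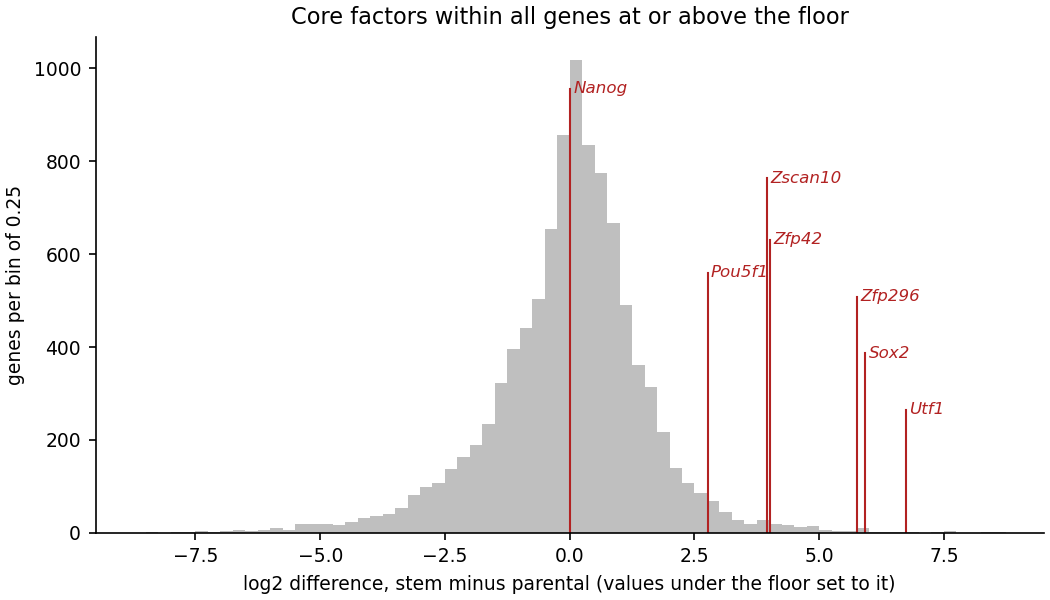
Distribution of the log2 difference, stem minus parental, over the 9783 genes at or above the floor in at least 1 sample, in bins of 0.25, with values below the floor raised to it. Red lines mark the 7 core factors, and their heights have no meaning. Nanog lies at 0.01 near the middle of the distribution, Pou5f1 at 2.77, and the other 5 between 3.96 and 6.74 in its upper tail.

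The precision of a single probe limited these values. Among 602 genes with 2 probes, both at or above the floor in at least 1 sample, single probes deviated from the mean log2 difference of their gene with an SD of 1.05. This SD was computed from the differences as measured, without the floor. The differences of the 6 higher core factors, from 2.77 to 6.74 with the floor applied, were larger than this SD. The 0.01 of Nanog is a lower bound set by the floor, so it cannot be read against the SD. Large differences of 1 probe were nevertheless often not shared by its partner. The partner shares cover all 805 genes with 2 probes. Of 78 probes that were 4-fold or more higher in the stem cells, 39 (50%) had a partner probe 2-fold or more higher, against 18.1% for all 1378 probes that reached the floor. Of 7 probes at 16-fold or more, 4 did, and 2 had a partner under the floor in both samples. Of 51 probes placed as that of Nanog was, below the floor in the parental sample and less than 2-fold above it in the stem cells, 11 (21.6%) had a partner 2-fold or more higher. This spread covers probes on the same arrays, and not the spread between cultures.

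**Figure D3:**
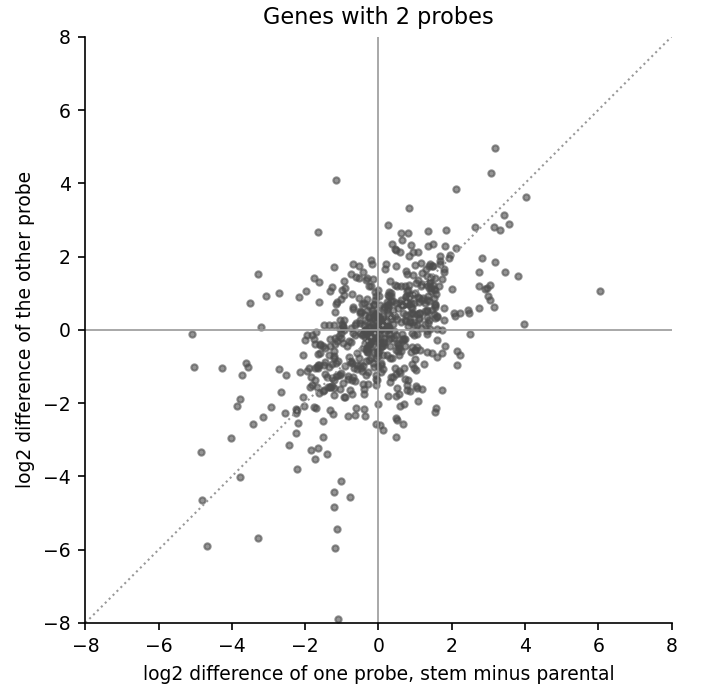
Log2 difference, stem minus parental, of one probe (x axis) against the other probe (y axis) for the 602 genes with 2 probes at or above the floor in at least 1 sample, with values below the floor raised to it. The dotted line marks equal differences. The points scatter widely around it. The SD of 1 probe, computed from the differences without the floor, was 1.05.

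RefSeq names 7 pseudogenes of Pou5f1, 2 of Nanog and 1 of Zfp42, and none of them has a probe named for it among the measured genes. The probe sequences were not used here, so a share of the signal of these 3 genes that came from a pseudogene cannot be separated. No pseudogene of Sox2, Utf1, Zscan10 or Zfp296 was named under the gene's own symbol.

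The promoter windows of the core factors are shown because several of these genes carry, close to their start, the DNA letters that OCT4 and SOX2 are known to bind in ES cells. The windows are those of RefSeq on the build GRCm38.p6, from 250 bases before to 50 after an annotated start, and all 7 genes matched, with 9 windows in all. Motifs were searched on both strands. They were the octamer ATGCAAAT of POU factors, its first 7 bases ATGCAAA, the SOX motif CATTGT, and a composite of CATTGT followed after 1 or 4 bases by ATGC. The GC box GGGCGG, the TATA motif TATAAA and the nuclear receptor motif AGGTCA were searched too. ATGCAAA lies within the octamer, and the composite overlaps the SOX motif. Sequences run 5′ to 3′ on the strand of the gene. A match describes the letters only.

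The first Nanog window, chr6:122707239-122707538 on the plus strand, held the composite from -72 to -62 relative to the start, on the opposite strand. Capitals mark it together with the overlapping ATGCAAA match. The second window, which starts later and overlaps the first, holds the same match.
Nanog: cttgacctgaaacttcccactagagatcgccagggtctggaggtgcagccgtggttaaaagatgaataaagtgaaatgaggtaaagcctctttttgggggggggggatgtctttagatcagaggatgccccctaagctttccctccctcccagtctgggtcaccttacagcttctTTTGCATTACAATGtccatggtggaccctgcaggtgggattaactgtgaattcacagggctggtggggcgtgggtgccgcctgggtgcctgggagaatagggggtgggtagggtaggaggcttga

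The windows of Zfp42 (chr8:43306960-43307259, minus strand) and Zfp296 (chr7:19577037-19577336, plus strand) each held 1 full octamer on the opposite strand. It ran from -186 to -179 in Zfp42 and from -111 to -104 in Zfp296. The Sox2 window (chr3:34649745-34650044, plus strand) held the 7-base form from -99 to -93 on its own strand. Capitals mark the first 7 bases of the octamer in each.
Zfp42: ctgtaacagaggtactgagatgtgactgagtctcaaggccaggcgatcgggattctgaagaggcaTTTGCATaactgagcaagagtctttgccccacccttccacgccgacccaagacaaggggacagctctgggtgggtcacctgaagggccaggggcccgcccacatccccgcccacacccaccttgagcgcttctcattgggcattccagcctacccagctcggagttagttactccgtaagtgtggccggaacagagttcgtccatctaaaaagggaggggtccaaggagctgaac
Zfp296: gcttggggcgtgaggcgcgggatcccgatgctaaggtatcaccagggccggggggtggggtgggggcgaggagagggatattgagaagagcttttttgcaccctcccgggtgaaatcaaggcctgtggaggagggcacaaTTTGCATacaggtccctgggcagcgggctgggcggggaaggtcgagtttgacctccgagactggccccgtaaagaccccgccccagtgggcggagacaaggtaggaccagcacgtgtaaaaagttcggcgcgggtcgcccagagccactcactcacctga
Sox2: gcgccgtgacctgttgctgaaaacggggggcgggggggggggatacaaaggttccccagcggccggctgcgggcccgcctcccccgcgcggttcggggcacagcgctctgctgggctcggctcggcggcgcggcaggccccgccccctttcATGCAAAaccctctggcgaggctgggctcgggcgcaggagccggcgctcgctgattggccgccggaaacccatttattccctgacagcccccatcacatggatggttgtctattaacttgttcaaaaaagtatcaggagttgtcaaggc

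The first Pou5f1 window (chr17:35505782-35506081, plus strand) held no match to the octamer, its 7-base form or the composite. It held a GC box from -45 to -40 and a nuclear receptor motif from -33 to -28, both in capitals. The enhancers through which OCT4 and SOX2 are known to act on Pou5f1 in mouse lie farther upstream than this window.
Pou5f1: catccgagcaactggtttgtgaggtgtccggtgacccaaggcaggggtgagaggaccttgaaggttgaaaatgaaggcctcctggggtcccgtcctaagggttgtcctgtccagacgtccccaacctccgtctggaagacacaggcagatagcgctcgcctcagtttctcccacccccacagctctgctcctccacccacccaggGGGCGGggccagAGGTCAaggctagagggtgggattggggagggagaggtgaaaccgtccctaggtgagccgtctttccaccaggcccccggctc

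Counts below are of genes with a match in any window, whereas shares are of windows. Pou5f1 and Nanog have 2 windows each, and the 32851 windows belong to 27025 gene symbols. The full octamer was found for 2 of the 7 genes, and in 1.74% of all 32851 windows. Its 7-base form was found for 4 of the 7, Sox2, Nanog, Zfp42 and Zfp296, and in 4.63% of windows. The composite was found for Nanog alone of the 7, and in 0.0944% of windows. The SOX motif was in a window of Pou5f1 and Nanog and in 12.6% of all windows. A GC box was found for 5 of the 7 genes and in 35.7% of windows, and a nuclear receptor motif for 4 of the 7 and in 16.3%. No window of the 7 genes held the TATA motif, which 13.6% of all windows held. Utf1 had GC boxes alone, 4 in number, and Zscan10 had none of the motifs. The windows also differed in CpG content. The observed over expected CpG ratio was 0.819 in the Sox2 window, 0.661 in that of Zfp296 and 0.615 in that of Utf1. It was 0.192 in the first Nanog window and 0.215 in that of Zscan10, with a median of 0.384 over all windows.

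**Figure D4:**
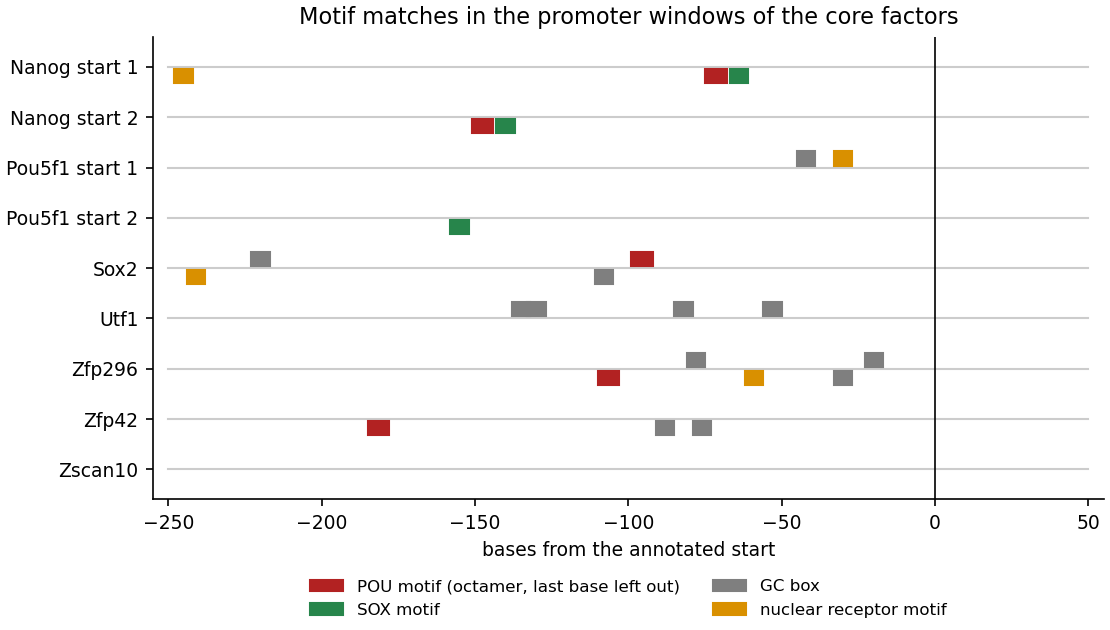
Motif matches in the 9 promoter windows of the core factors by distance in bases from the annotated start, with boxes above a line for matches on the strand of the gene and below it for the opposite strand. The POU motif (red) lies next to the SOX motif (green) in both Nanog windows, stands alone in Sox2, Zfp296 and Zfp42, and is not found in the windows of Pou5f1, Utf1 and Zscan10.

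Genes with a POU motif in a window were higher about as often as all genes. Of 126 genes at or above the floor with an octamer in a window, 24 (19%) were 2-fold or more higher and 29 (23%) were lower. For the 7-base form 76 of 329 genes (23.1%) were higher and 69 (21%) lower. Over the 7865 genes with a window these shares were 20.6% and 20.7%. Of 9 measured genes with a composite none was higher and 5 were lower, Nanog being one of the other 4.

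The genes that OCT4 and SOX2 are known to switch on in mouse ES cells were mostly higher, as 6 of the core factors were. Of 29 listed targets outside the core factors 16 were measured. In the stem cells 13 were 2-fold or more higher, none was lower and 1 was under the floor in both samples, where 20.4% of all genes were higher and 20.8% lower. Over the 15 targets that reached the floor the median log2 difference was 2.76, against 0.10 over all genes. Esrrb, an orphan nuclear receptor, was at 33968 in the stem cells and at 40.6 in the parental cells, at least 362-fold higher. The growth factor gene Fgf4 was at 18021 in the stem cells and at 39.7 in the parental cells, at least 192-fold higher, and it is one of the best known targets of OCT4 with SOX2. The F-box gene Fbxo15 was at 17816 in the stem cells and at 43.4 in the parental cells, at least 190.0-fold higher. Polycomb-associated Jarid2 was 6.75-fold higher, with 2540.0 in the stem cells and 376 in the parental cells. Klf2 (1691 in the stem cells and 978 in the parental cells) and Setdb1 (593 in the stem cells and 924 in the parental cells) were less than 2-fold apart.

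Proteins reported beside OCT4, SOX2 or NANOG in ES cell complexes were divided. Of 35 listed genes 26 were measured, 14 of them 2-fold or more higher, 2 lower and 10 less than 2-fold apart, where 20.4% of all genes were higher and 20.8% lower. The median was 1.09. The 3 largest differences were those of Esrrb, Tfcp2l1 and Nr0b1. Tfcp2l1, which encodes a factor of the naive state, was at 15457 in the stem cells and at 43.4 in the parental cells, at least 165-fold higher. Nr0b1, which encodes the nuclear receptor DAX1, was at 2554 in the stem cells and at 101 in the parental cells, 25.3-fold higher. The list held 7 measured subunits of the NuRD complex, which removes acetyl groups from histones and remodels nucleosomes, and this subset was picked after its values were seen. Of these, Gatad2a and Chd4 were 2-fold or more higher, and Mbd3, Mta1, Mta2, Mta3 and Gatad2b were less than 2-fold apart. The Mta3 value is the mean of 2 probes that went opposite ways by more than 2-fold, at log2 -1.21 and 1.70. Gatad2a was 2.60-fold higher (1898 in the stem cells and 730.1 in the parental cells), as the mean of 2 probes. These were at log2 0.98, just under 2-fold, and 1.77. Chd4 was 2.07-fold higher (5700 in the stem cells and 2750 in the parental cells), Mbd3 was 1.73-fold higher (11186 in the stem cells and 6478 in the parental cells), and Mta2 was lower by 1.53-fold (7691 in the stem cells and 11800 in the parental cells). The 2 lower genes were Smad1, which carries BMP signals, by 3.76-fold (466 in the stem cells and 1753 in the parental cells), and Stat3, which carries those of leukemia inhibitory factor, by at least 8.24-fold (44.1 in the stem cells and 770.1 in the parental cells). Esrrb, Tfcp2l1 and Klf5 stand in both this list and that of the targets.

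**Figure D5:**
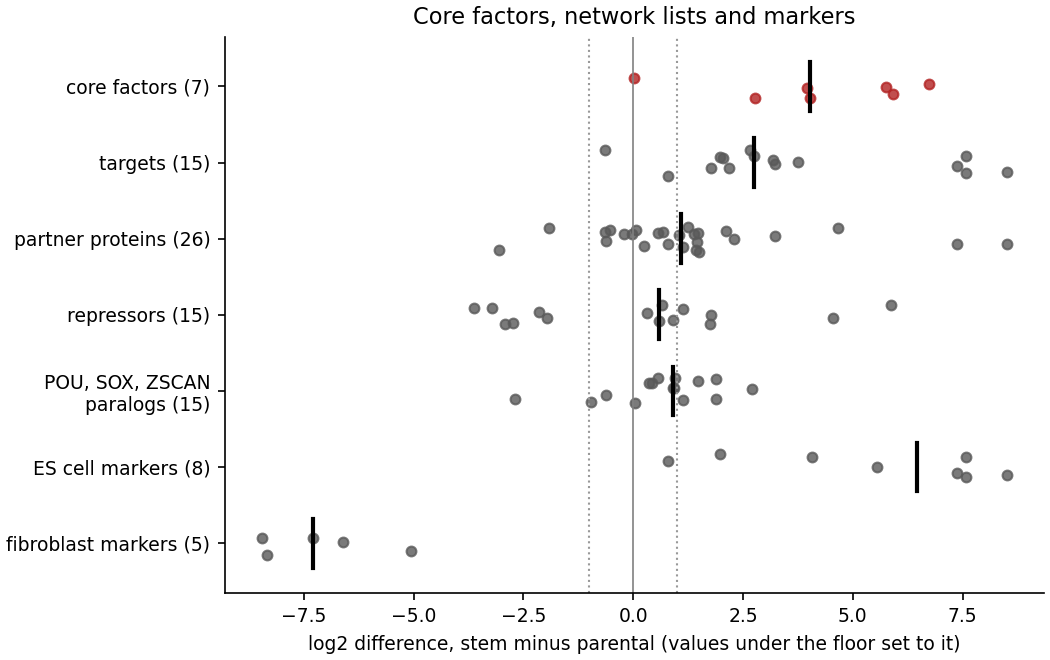
Log2 difference, stem minus parental, with values below the floor raised to it, for the core factors, the network lists, the paralogs and 2 marker lists. Points are genes at or above the floor in at least 1 sample, their number stands in parentheses, black bars are medians over the plotted genes, and dotted lines mark 2-fold. The targets lie mostly right of 2-fold, the repressors lie on both sides, and the 5 fibroblast markers lie far to the left.

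Genes described as repressing Pou5f1, Nanog or Sox2 in differentiation, or as opposing them in other lineages, stood on both sides. Of 24 listed 16 were measured, 5 were 2-fold or more higher and 6 lower in the stem cells, where 20.4% of all genes were higher and 20.8% lower. Over the 15 that reached the floor the median log2 difference was 0.60. Gata6, a factor of primitive endoderm, was 12.2-fold lower, with 142 in the stem cells and 1733 in the parental cells. Nr2f2, an orphan nuclear receptor that can bind the Pou5f1 promoter, was at least 9.27-fold lower (73.4 in the stem cells and 866 in the parental cells). Hmga2, an architectural chromatin protein, was lower by 7.59-fold (1349.5 in the stem cells and 10246 in the parental cells). In contrast Nr6a1, which encodes the nuclear receptor GCNF and represses Pou5f1 in differentiating mouse cells, was 23.3-fold higher, with 10615 in the stem cells and 456 in the parental cells. The DNA methyltransferase gene Dnmt3b was 58.6-fold higher (7089 in the stem cells and 121 in the parental cells), and Dnmt1, the maintenance enzyme, 3.40-fold higher (2068 in the stem cells and 607 in the parental cells). Dnmt3b is also expressed in the normal ES cell state. Tcf7l1 is counted as higher both here and among the partner proteins.

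Relatives of the core factors had smaller folds or bounds than Sox2, at 60.8-fold, and Zscan10, at 15.6-fold. A bound does not show that the fold itself was smaller, and those of Sox1, Pou4f1 and Zscan5b are bounds. The bound for Pou5f1, at least 6.82-fold, lay near the largest value among the relatives, 6.50-fold for Sox15, which was measured above the floor. That nearness depends on the floor, since the ratio of the Pou5f1 values as measured was 16.9. Of 18 measured paralogs with POU, SOX or ZSCAN symbols 5 were 2-fold or more higher, 1 was lower, 3 were under the floor in both samples and 9 were less than 2-fold apart, where 20.4% of all genes were higher and 20.8% lower. Over the 15 paralogs that reached the floor, as the genes behind those shares did, the median log2 difference was 0.91. Of the 3 POU genes, Pou4f1 was at least 2.18-fold higher and Pou6f1 was at 580.5 in the stem cells and at 568 in the parental cells. Among the SOX genes Sox15, which like SOX2 is known from mouse ES cells, was 6.50-fold higher (3171 in the stem cells and 488 in the parental cells). Sox1, a close relative of Sox2, was at 262 in the stem cells and at 44.8 in the parental cells, at least 2.79-fold higher, while Sox3 was at 139 in the stem cells and at 67.1 in the parental cells. Sox4 was lower by 6.41-fold (114 in the stem cells and 732 in the parental cells). Of 5 ZSCAN genes Zscan5b, at least 3.71-fold, and Zscan18, 3.67-fold, were higher.

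Among all other genes, those whose log2 difference, with values below the floor raised to it, lay nearest to that of a core factor were Rpp25 and Nup210 for Sox2 and Qprt and Mreg for Utf1. They were Dlgap3 and 2410003L11Rik for Zfp296, 2410137M14Rik and Sult4a1 for Zfp42, Mia and Bcam for Zscan10, and Pmm1 and Rhebl1 for Pou5f1. The gaps were at most 0.17, for Mreg, on the log2 scale. The differences of Pou5f1 and Zfp42 are lower bounds, as are those of Nup210, Mreg, Dlgap3, 2410003L11Rik, 2410137M14Rik and Mia, so their nearness is that of bounds and depends on the floor. The likeness rests on 1 difference between 2 samples, and 68 genes lay within 0.1 of Pou5f1 but 1 within 0.1 of Utf1. Nanog, which was less than 2-fold apart, was left out of this search.

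Markers of cell types were read beside these values. For the counts below, 20.4% of all genes that reached the floor were 2-fold or more higher and 20.8% were lower in the stem cells. Markers under the floor in both samples would not be counted in that base. Of 18 ES cell markers 8 were measured, 7 were higher by 2-fold or more and none lower, with intensities summing to 97478 in the stem cells and 1453 in the parental cells. Of these 8, 6 also stand among the targets. All 5 measured of 20 fibroblast markers were lower in the stem cells, with sums of 769 in the stem cells and 138645 in the parental cells. Thy1 was lower by 349-fold, Eln by at least 322-fold and S100a4 by 157-fold, and Eln and Snai2 were under the floor in the stem cells. In RNA from a whole culture, fewer cells of a type and less RNA per cell cannot be told apart. Since Sox2 is also a neural progenitor gene, 15 markers of such cells were read. Of 11 measured 3 were higher (Olig2 by 2.96-fold, Prom1 by 2.83-fold and Sox1), 1 was lower (Zic1, by at least 55.8-fold) and 3 were under the floor in both samples, namely Pax3, Pax7 and Neurog2. The Prom1 fold is that of the mean of 2 probes. With values below the floor raised to it, these probes differed by log2 0.84, which is under 2-fold, and 1.22. The intensities of the 11 markers summed to 3638 in the stem cells and 7658 in the parental cells, but without Zic1, the brightest of them, to 3570 in the stem cells and 2445 in the parental cells. Such sums add probes of unequal brightness and only describe a list. Of 7 measured primordial germ cell markers of 12, a cell type that also uses Pou5f1, 6 were higher. Tdrd12 was at least 31.2-fold higher, Piwil2 at least 9.19-fold and Nanos3 at least 8.44-fold, while Ddx4 was at 258 in the stem cells and at 191 in the parental cells. The germ cell markers summed to 6687 in the stem cells and 632 in the parental cells. Of 6 measured primed epiblast markers of 11, Dnmt3b, Lefty1 and Lefty2 were higher, Sox4 was lower, and Otx2 and Zic2 were under the floor in both samples. Lefty1 and Lefty2 also stand among the targets, and Dnmt3b among the repressors. Of 6 measured primitive endoderm markers of 12 none was higher, Col4a1 and Gata6 were lower and Sox17, Hnf4a and Lama1 were under the floor in both. Of 3 measured trophoblast markers of 10, Ascl2 was at least 3.58-fold and Hand1 2.19-fold higher. The part of other cell types in the values of the core factors was not tested.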

How the data were processed

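RNA was hybridised to a 1-colour mouse oligonucleotide array (Phalanx OneArray v2) after amplification and coupling to Cy5, per the labels' protocols. The authors deposited 1 table of probe intensity values on a linear scale. No source used here gives the scanner, background correction, normalisation or probe filters. The nearly equal quantiles of the columns would follow from a normalisation between arrays, which removes differences in total signal. Such a step could shift both columns toward each other, and array number limits the precision.

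Of 13989 probes, 12380 had 1 gene symbol, 0 had several and 1609 were unnamed; symbols were updated through Entrez identifiers for 12364 probes with RefSeq (GRCm38.p6), and 16 stayed as the platform has them. Log2 intensities of the probes of a gene were averaged. The floor was applied to this mean, so a probe under the floor still entered it. Each of the 7 core factors has 1 probe. With 1 sample per group no test was made. Values under the 25th percentile of a column were set to it for the differences called bounded here. Named genes were the core factors, up to 3 genes each way per list at 2-fold or more, Sox1 and Sox3, and the 2 nearest genes per core factor. Outside this rule, and after their values were seen, the further genes named were chosen for their role: Jarid2, Klf2, Setdb1, Klf5, Tcf7l1, the NuRD subunits, Pou6f1, Snai2, Ddx4 and the list members named as under the floor. The core factors, gene lists and markers were chosen with earlier results of these data known. The partner probe shares, the shares of genes with a motif, CpG content, pseudogene counts and chromosomal neighbours were added after seeing the data. The planned protein comparison was not made, since protein sequences were not used here. Calls and motif searches were tested on simulated data. Alternatives were median centring, quantile normalisation, lowess centring (span 0.3), the brightest probe, an offset of 50, floors at percentile 10 or 50 or none, and a 4-fold rule. Computation used Python 3.11.15, pandas 2.3.3, numpy 2.4.6 and statsmodels 0.14.6.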

Additional observations from a re-analysis of the deposited data

How the results depend on the processing

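Of the 7 core factors 6 stayed 2-fold or more higher under each alternative, the 4-fold rule included. Nanog reached 2-fold under none, with log2 differences from 0.01 to 0.29 where it had one. With the floor at the median Nanog was under it in both samples and had no fold. The log2 difference ran from 5.68 to 5.93 for Sox2, from 6.07 to 6.74 for Utf1 and from 3.81 to 3.96 for Zscan10. The choice of floor moved the others most. Pou5f1 was at 1.07 with the floor at the median and 4.08 with none, Zfp42 at 2.32 and 5.63, and Zfp296 at 4.13 with the floor at the median. The median over the 7 genes was 5.63 with no floor, against 4.02, since the parental values of 3 genes lay under the floor. Under the 4-fold rule the partner list had 6 higher and 1 lower gene, the repressor list 2 higher and 5 lower, and the paralogs 1 higher and 1 lower. By that rule 6.31% of all genes were higher and 9.14% lower. The paralogs also had 1 higher with the floor at the median, and 2 lower under lowess centring, with the floor at the 10th percentile and with none. Of all the recomputed results, 182 were within the tolerance used, a log2 value within the probe SD of 1.05 (0.1 for the median of all genes) or a count or share within 1.5 times, and 16 were outside it, with none reversed. This tolerance is wide, and within it Pou5f1 reached 3.68 with the floor at the 10th percentile, the targets had 10 higher and the partner median was 0.62 with the floor at the median. No paired analysis was possible because each group had 1 sample. What depth limits was signal near the floor: the 3 folds of Pou5f1, Nanog and Zfp42 are lower bounds for that reason.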

Other observations

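The chromosomal neighbours of the core factors, taken as the 3 nearest protein-coding RefSeq genes on either side, were read as well. Of 42 neighbours 28 were measured, with 7 of them 2-fold or more higher and 4 lower. Another 5 were under the floor in both samples and 12 were less than 2-fold apart. Over all genes that reached the floor 20.4% were higher and 20.8% lower, a base in which the 5 would not be counted. The median log2 value of the 28, -0.01, is the one that the 5 genes under the floor in both samples take. It therefore describes the floor and not a measured difference. The genes on either side of Nanog held 2 of the higher ones. Slc2a3, a glucose transporter, was at 22997 in the stem cells and at 304 in the parental cells, 75.6-fold higher, and Gdf3, a TGF-beta family ligand of ES cells, was 3.92-fold higher. Foxj2, on the same side as Slc2a3, was lower by 2.66-fold (591 in the stem cells and 1574 in the parental cells). Next to Zfp42 lay Triml2, a gene of the tripartite motif family. Triml2 was at 2704 in the stem cells and at 80.7 in the parental cells, at least 28.8-fold higher. Frg1, farther out on the same side, was lower by 4.56-fold (425 in the stem cells and 1940 in the parental cells). Next to Utf1, Kndc1 was at least 8.01-fold higher (751 in the stem cells and 33.7 in the parental cells). The protease gene Adam8, on the other side of Utf1 and not adjacent to it, was lower by 21.1-fold. Its values were 122 in the stem cells and 2568 in the parental cells.

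The measured neighbours of Sox2, namely Ccdc39, Dnajc19, Atp11b and Dcun1d1, were each less than 2-fold apart. The Dnajc19 value is the mean of 2 probes, at log2 -0.62 and 1.44. Next to Pou5f1, Tcf19 was lower by 2.36-fold, with 2379 in the stem cells and 5607 in the parental cells. Next to Zscan10, Zfp13 was 3.23-fold higher. Thoc6, on the other side of Zscan10 and not adjacent to it, was 2.39-fold higher. Clasrp, next to Zfp296, was 3.24-fold higher. These genes were chosen by position after the values of the core factors were seen, and no test was made.

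Of the genes with the SOX and POU composite near their start, Ak1, Alyref2, Cast, Smap1 and Vgll3 were the 5 lower ones. Smap1 was lower by 3.84-fold, with 161 in the stem cells and 618 in the parental cells, and Vgll3 by at least 2.78-fold, with 53.9 in the stem cells and 260 in the parental cells. The Smap1 fold is that of the mean of 2 probes. With values below the floor raised to it, these probes differed by log2 -1.22 and -1.60, both smaller than that fold.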
